A study of Rattus norvegicus with 7 samples.

Results

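The genes described here are 8 G protein-coupled receptors that act on the timing of oligodendrocyte differentiation, Gpr17, Gpr37, Gpr37l1, Adgrg1, Gpr3, S1pr5, S1pr1 and Lpar1, together with Lingo1, a membrane protein that is not a G protein-coupled receptor and also slows the process. They were taken by symbol from the deposited table, in which all 9 had a single entry, out of 32852 genes. The 9 genes passed the filter on low values, a mean normalised count of at least 10. The samples are cultured oligodendrocyte progenitor cells from brains of rats at postnatal day 7, labelled as WT, with no strain given. For 3 libraries the cells had received an siRNA against RNLTR12-int (a rat retroviral repeat element), and for 4 libraries a control siRNA, both by lipid transfection. Both groups went into differentiating medium at the transfection and stayed there for 4 to 5 days. The labels call the libraries biological replicates but name no animal or culture for them, so p-values here reflect only how far these samples scatter, and that scatter may be technical. The level of RNLTR12-int was not analysed here, so each group is known only by the siRNA it received.

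Oligodendrocytes arise from dividing progenitors that leave the cell cycle, pass through a short committed stage and then make myelin. Receptors on the cell surface set the pace of these steps, mostly through cyclic AMP and the small GTPase RhoA. Gpr17 marks the committed stage and must decline before cells mature. Gpr37, S1pr5 and Lpar1 appear as the cells mature, and in mice Gpr37 restrains the onset of myelination. Adgrg1 keeps progenitors dividing in mice. Gpr37l1, a relative of Gpr37, and S1pr1, a receptor for sphingosine 1-phosphate, are abundant in astrocytes as well.

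The libraries held 22523873 to 61803693 recovered reads. Sox10, a transcription factor of the whole oligodendrocyte lineage, had 8037 to 28089 normalised counts in siRNLTR12-int libraries and 8318 to 38713 in control libraries. The cultures also held transcripts of markers of other glia and of neurons. Astrocyte markers (11 of 11 measured) split the libraries along a line other than the siRNA. Their summed normalised count was 766953, 202358 and 196700 in siRNLTR12-int replicates 1 to 3 and 688570, 605734, 192429 and 205551 in control replicates 1 to 4. The libraries high in these markers were thus siRNLTR12-int replicate 1 and control replicates 1 and 2. Microglia markers (10 of 11 matched by symbol) summed to 17333, 2367 and 2397 in siRNLTR12-int replicates 1 to 3 and to 14758.5, 5149, 1590 and 2131 in control replicates 1 to 4. Neuron markers (9 of 9 matched) summed to 35391, 46218 and 44911 in siRNLTR12-int replicates 1 to 3 and to 33237, 37852, 44448 and 42745 in control replicates 1 to 4. None of the astrocyte, microglia or neuron markers was at 0 in every library. Of the vascular and fibroblast markers (9 of 11 matched by symbol), 1 was at 0 in all of them, Cldn5 of brain endothelium. Other endothelial markers of that list were present, with mean normalised counts of 153 for Flt1, 111 for Kdr and 21.7 for Cdh5. Within such mixtures, fewer cells of a type and less RNA per cell cannot be told apart.

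After the siRNA against RNLTR12-int, Gpr3 was higher and S1pr5, Gpr37 and Lpar1 were lower in every library than in every control library. Gpr17, Gpr37l1, Adgrg1 and S1pr1 overlapped between the groups, and Lingo1 overlapped in a single library. With limma on log2(normalised count + 1), adjusted over all genes tested, 0 of the 9 genes passed an adjusted p of 0.05, as did 0.00% of all 18225 genes. At an unadjusted p under 0.05, limma had 5 of the 9, against 6.30% of all genes. Of these, Gpr3 and Lingo1 were higher (2 of 9, against 3.33% of all genes) and S1pr5, Gpr37 and Lpar1 were lower (3 of 9, against 2.98%). edgeR on the recovered reads also called 0 of the 9. In the authors' deposited table, Gpr3 was called higher and S1pr5 lower at an adjusted p under 0.05, which is 2 of 9, against 0.752% of the genes tested there (0.384% higher and 0.368% lower). With limma array weights, which count discordant libraries less, Gpr3, S1pr5, Gpr37 and Lpar1 passed, 4 of the 9 against 4.60% of all genes. The groups did not overlap upward in 1 of the 9, against 4.09% of all genes, and downward in 3, against 3.59%, which makes 4 of 9 against 7.68% in either direction. The median log2 difference of the 9 was -0.13 (2 positive, 7 negative), beside 0.006 over all genes tested (9300 positive, 8925 negative).

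**Figure D1:**
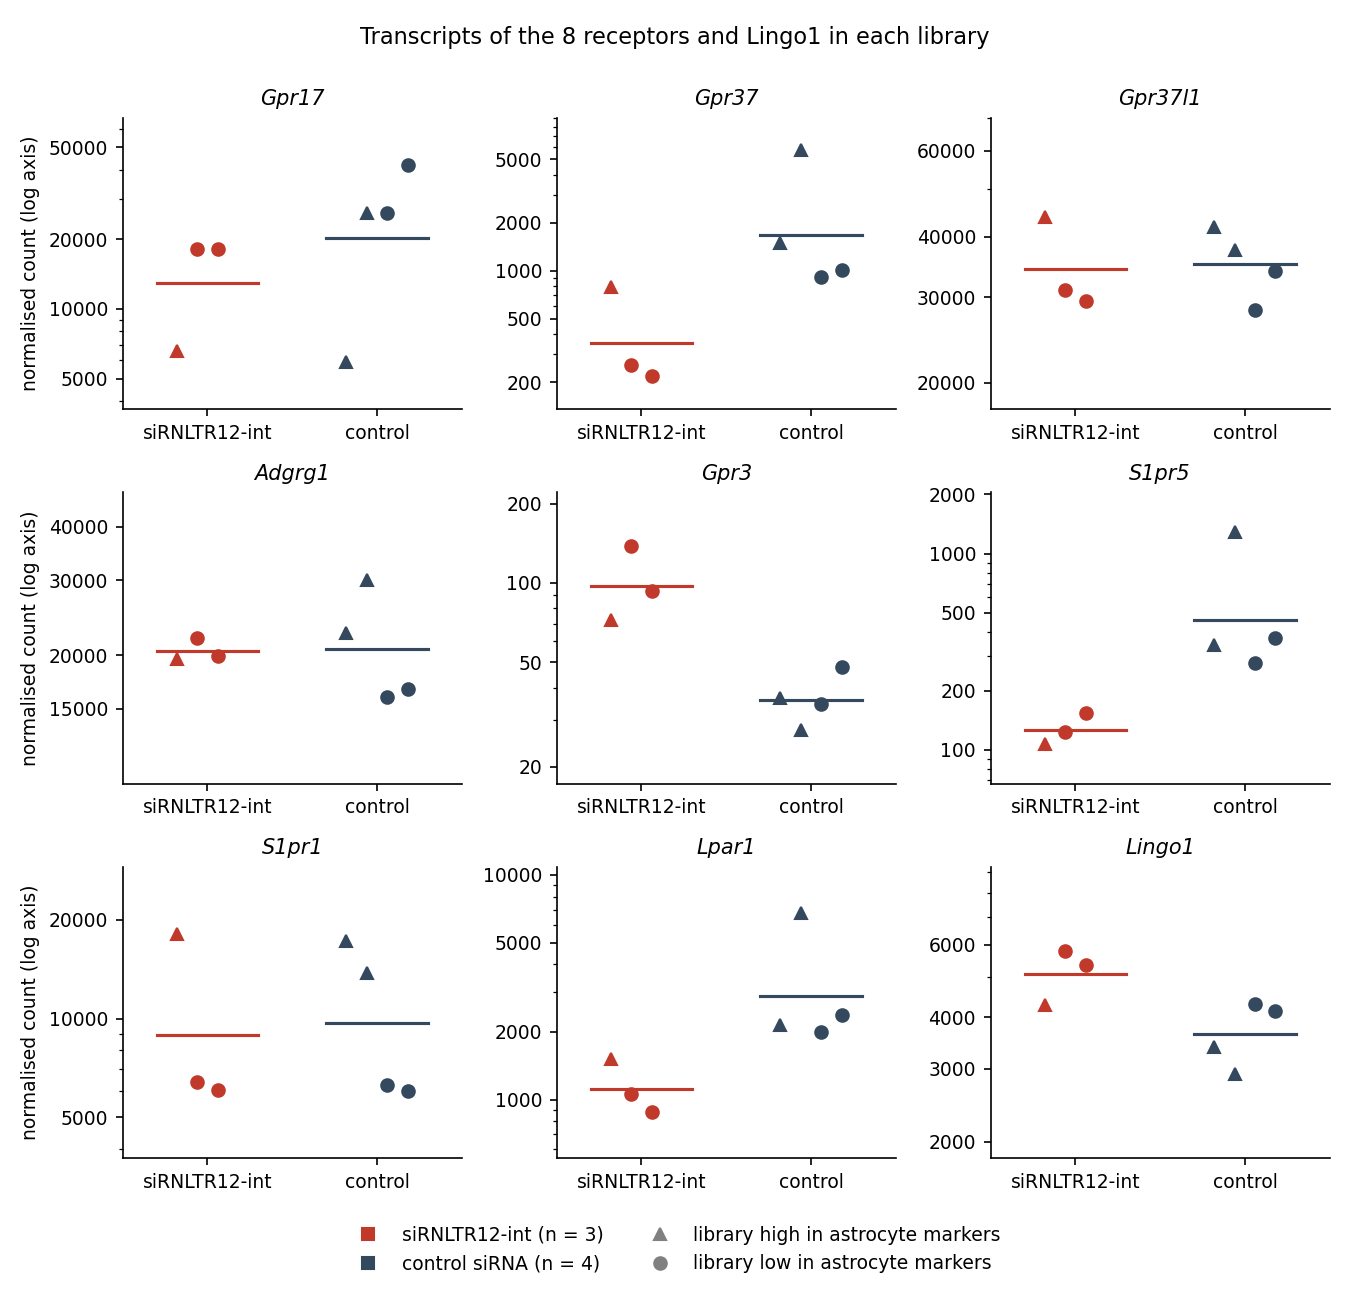
Normalised counts (log axis) of the 8 receptors and Lingo1 in 3 siRNLTR12-int and 4 control libraries. Points are libraries, triangles mark those high in astrocyte markers and lines are geometric means; S1pr5 lies at 108 to 154 after the siRNA and at 278 to 1281 in control libraries, with control replicate 2 on top.

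**Figure D2:**
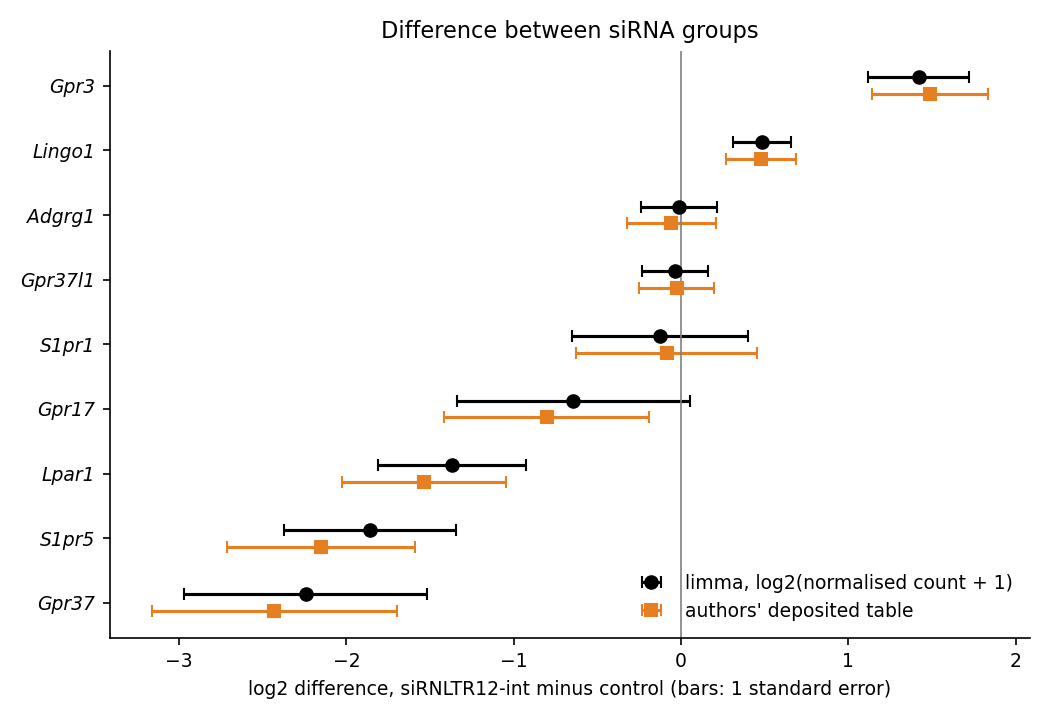
Log2 difference of each gene, siRNLTR12-int minus control, from limma and from the authors' deposited table, with bars of 1 standard error. Gpr3 lies at 1.42 and 1.49, Gpr37 at -2.24 and -2.43, and Adgrg1 at -0.01 and -0.06.

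Gpr3 (ENSRNOG00000009540), a receptor that raises cyclic AMP without a known need for a ligand, was the only one of the 9 with all siRNLTR12-int libraries above all controls. Its normalised counts were 72.2, 138 and 93.5 in siRNLTR12-int replicates 1 to 3, and 36.4, 27.6, 34.5 and 47.9 in control replicates 1 to 4. These rest on few reads, 79, 109 and 116 in siRNLTR12-int libraries and 38, 38, 40 and 27 in control libraries. The means were 101 ± 33.6 (SD, n = 3) after the siRNA and 36.6 ± 8.44 (SD, n = 4) in controls, a 2.77-fold ratio. The limma log2 difference was 1.42 with a standard error of 0.30 (95% interval 0.71 to 2.13, adjusted p = 0.647). In the authors' deposited table Gpr3 rose by 1.49 on the log2 scale (standard error 0.35, DESeq2 adjusted p = 0.0074). DESeq2 no longer called it without siRNLTR12-int replicate 2, siRNLTR12-int replicate 3, control replicate 2 or control replicate 3, with adjusted p of 0.294, 0.227, 0.0556 and 0.0514. The difference was alike on both sides of the astrocyte split, 1.46 among the 4 libraries with few astrocyte transcripts and 1.16 among the other 3, which include a single siRNLTR12-int library.

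S1pr5 (ENSRNOG00000020901), the sphingosine 1-phosphate receptor of mature oligodendrocytes, was lower in all siRNLTR12-int libraries. It had 108, 122.8 and 154 normalised counts in siRNLTR12-int replicates 1 to 3, and 343, 1281, 278 and 373 in control replicates 1 to 4. Control replicate 2 stood far above the other controls, and the lowest control still lay above the highest siRNLTR12-int library. The means were 128 ± 23.5 (SD, n = 3) after the siRNA and 568 ± 477 (SD, n = 4) in controls. The difference was -1.86 with a standard error of 0.51 in limma (95% interval -3.06 to -0.65, adjusted p = 0.661). In the authors' deposited table it fell by 2.15 on the log2 scale (standard error 0.56, DESeq2 adjusted p = 0.0248). Leaving out control replicate 2 brought the DESeq2 log2 fold change to -1.36 with an adjusted p of 3.81e-05. The DESeq2 call was lost without siRNLTR12-int replicate 2, siRNLTR12-int replicate 3 or control replicate 4, at adjusted p of 0.38, 0.249 and 0.0631.

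The promoters of Gpr3 and S1pr5 are shown because these are the genes of the set that passed the test in the authors' deposited table, in opposite directions. Both come from RefSeq on GRCr8, a later build than the Rnor_6.0 of the deposited data, matched by symbol (8 of the 9 genes matched, all but Lpar1), and run 5′ to 3′ from 250 bases before to 50 bases after the annotated start. The Gpr3 window is chr5:150698477-150698776 on the minus strand and the S1pr5 window is chr8:28067820-28068119 on the minus strand. Capitals mark matches, on either strand, to TGAGTCA (AP-1), TGACG (the core of the cAMP response element), ACAAAG (Sox factors), CTGGCAC (Myrf) and GGGCGG (GC box).
Gpr3: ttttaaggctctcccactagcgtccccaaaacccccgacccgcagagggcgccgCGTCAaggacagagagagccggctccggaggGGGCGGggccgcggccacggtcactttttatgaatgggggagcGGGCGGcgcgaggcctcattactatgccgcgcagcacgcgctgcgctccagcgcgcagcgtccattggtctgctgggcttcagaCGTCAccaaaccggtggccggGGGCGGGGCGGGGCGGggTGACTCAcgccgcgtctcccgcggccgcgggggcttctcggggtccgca
S1pr5: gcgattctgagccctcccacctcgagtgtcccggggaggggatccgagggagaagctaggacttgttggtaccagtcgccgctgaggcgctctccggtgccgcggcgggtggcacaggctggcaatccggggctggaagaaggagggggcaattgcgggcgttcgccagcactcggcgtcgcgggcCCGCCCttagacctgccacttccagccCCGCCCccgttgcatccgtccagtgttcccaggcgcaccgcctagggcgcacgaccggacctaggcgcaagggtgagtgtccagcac
The Gpr3 window held 1 AP-1 match, 2 cAMP response cores and 5 GC boxes, of which 3 overlap each other. The S1pr5 window held 2 GC boxes and none of the other motifs. Among all 33469 promoter windows of this length, 4.63% held the AP-1 letters, 21.2% the cAMP core, 18.8% the Sox letters, 4.75% the Myrf letters and 33.1% the GC box. A match is a description of these letters and not a binding site.

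Gpr37 (ENSRNOG00000002524) had the largest log2 difference among the 9 in limma and in the authors' deposited table, without passing either test. Its normalised counts were 794, 256 and 218 in siRNLTR12-int replicates 1 to 3, and 1496, 5673, 919 and 1015 in control replicates 1 to 4. The groups were apart, with siRNLTR12-int replicate 1 nearest to the controls, and control replicate 2 was far above the rest. The means were 422 ± 322 (SD, n = 3) after the siRNA and 2276 ± 2279 (SD, n = 4) in controls. In limma Gpr37 differed by -2.24 with a standard error of 0.73 (95% interval -3.95 to -0.54, adjusted p = 0.701). The authors' deposited table gave -2.43 with a standard error of 0.73 (DESeq2 adjusted p = 0.081). Without control replicate 2 the DESeq2 value was -1.43 (adjusted p = 0.392). It passed in DESeq2 without siRNLTR12-int replicate 1, control replicate 1 or control replicate 3, with adjusted p of 0.00133, 0.0348 and 0.0494.

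Lpar1 (ENSRNOG00000013656), the lysophosphatidic acid receptor that appears around the onset of myelination, was likewise lower in each siRNLTR12-int library. It had 1510, 1058 and 876 normalised counts in siRNLTR12-int replicates 1 to 3, and 2153, 6777, 1999.6 and 2386 in control replicates 1 to 4. The groups did not overlap, and control replicate 2 was again the highest library. The means were 1148 ± 326 (SD, n = 3) after the siRNA and 3329 ± 2304 (SD, n = 4) in controls. Lpar1 differed by -1.37 with a standard error of 0.44 in limma (95% interval -2.41 to -0.33, adjusted p = 0.701), and by -1.54 with a standard error of 0.49 according to the authors' deposited table (adjusted p = 0.121). Without control replicate 2 the DESeq2 value was -0.92 (adjusted p = 0.0564). DESeq2 called it without siRNLTR12-int replicate 1 or control replicate 1, at adjusted p of 0.0354 and 0.0302. In each of those DESeq2 fits 4 of the 9 genes passed (Gpr3, S1pr5, Gpr37 and Lpar1), against 2.85% of all genes in the fit that left out siRNLTR12-int replicate 1 and 3.01% in the other. With the astrocyte split as a block, DESeq2 called the same 4 genes and Lingo1, 5 of the 9, against 4.00% of all genes. limma with the same block called 0 of the 9 and 0 genes in all, with adjusted p of 0.191 for Gpr37, Gpr3 and Lingo1, 0.225 for S1pr5 and 0.229 for Lpar1.

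**Figure D3:**
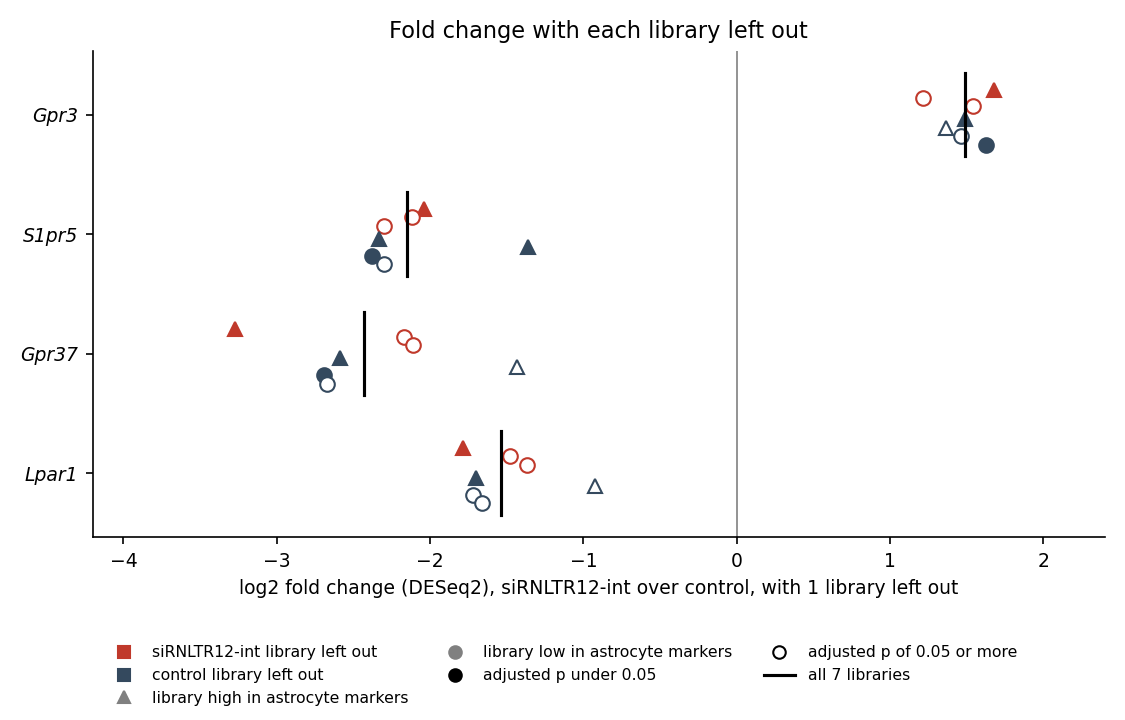
DESeq2 log2 fold change (x axis) of Gpr3, S1pr5, Gpr37 and Lpar1 with 1 library left out at a time; red and dark points name the group of the library left out, triangles those high in astrocyte markers, and filled points have an adjusted p under 0.05. All estimates keep their sign, and those without control replicate 2 lie nearest to 0 for S1pr5 (-1.36), Gpr37 (-1.43) and Lpar1 (-0.92).

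Markers of the stages of the lineage stood beside these receptors as follows. All 14 myelin markers had a negative limma log2 difference (median -2.24), and their summed normalised count was 80542 to 103601 in siRNLTR12-int libraries and 211004 to 1012460 in control libraries, highest in control replicate 2. All 9 markers of newly formed oligodendrocytes were negative too (median -0.75), with sums of 55122 to 85374 in siRNLTR12-int libraries and 63357 to 185033 in control libraries. Of the 14 myelin markers 8 were called lower in the authors' deposited table, and of the 9 newly formed markers 1 was, against 0.368% of all genes tested there. Progenitor markers (7 of 8 matched) had 5 positive and 2 negative limma log2 differences (median 0.51), beside 9300 positive and 8925 negative over all genes tested. The negative ones were Tnr (-0.43) and Vcan (-0.23). Of the 7, 0 were called by limma or in the authors' deposited table. The summed normalised count of the progenitor markers was 248891, 385063 and 366434 in siRNLTR12-int replicates 1 to 3 and 239117, 246684, 325041 and 314411 in control replicates 1 to 4, which overlap. Each library high in astrocyte markers had a lower sum than each of the others. In 2 of the 7 all siRNLTR12-int libraries were above the controls, against 4.09% of all genes, namely Ptprz1 and Cspg5, the second with a limma difference of 0.65 (adjusted p = 0.661). The part of these markers in the results for the receptors was not tested.

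Gpr17 (ENSRNOG00000025745), the receptor of the committed stage, varied widely within both siRNA groups, which overlapped. It had 6558, 18081 and 18200.1 normalised counts in siRNLTR12-int replicates 1 to 3, and 5915, 25917, 25891 and 41839 in control replicates 1 to 4. Its low libraries were siRNLTR12-int replicate 1 and control replicate 1, while the other controls all lay above the other siRNLTR12-int libraries. The means were 14280 ± 6687 (SD, n = 3) after the siRNA and 24891 ± 14712 (SD, n = 4) in controls. The limma log2 difference was -0.64 with a standard error of 0.70 (95% interval -2.28 to 0.99, adjusted p = 0.9748), and the authors' deposited table gave -0.80 (DESeq2 adjusted p = 0.98). Leaving out control replicate 1 moved the limma value to -1.23 (adjusted p = 0.444) and leaving out siRNLTR12-int replicate 1 moved it to -0.15 (adjusted p = 0.939).

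The gene whose profile over the 7 libraries was nearest to that of Gpr17 was Lims2, which encodes an adaptor protein of focal adhesions. In the RefSeq annotation of GRCr8, Gpr17 lies inside Lims2 and on the opposite strand. Lims2 had 2312, 5936 and 6324 normalised counts in siRNLTR12-int replicates 1 to 3, and 2105, 9041, 8877 and 14167 in control replicates 1 to 4. The ratio of Gpr17 to Lims2 was 2.84, 3.05 and 2.88 in siRNLTR12-int replicates 1 to 3 and 2.81, 2.87, 2.92 and 2.95 in control replicates 1 to 4, so the genes kept nearly the same proportion while Gpr17 itself spanned 5915 to 41839. The libraries were directional, but the sources used here do not say how strand entered the counting. Only the spans of the genes were compared, not their exons, so whether Gpr17 and Lims2 share reads was not tested.

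Lingo1 (ENSRNOG00000017193), a leucine-rich repeat protein that slows differentiation through RhoA, was higher in 2 of the 3 siRNLTR12-int libraries than in all controls. It had 4295, 5779 and 5354 normalised counts in siRNLTR12-int replicates 1 to 3, and 3396, 2916, 4312 and 4141 in control replicates 1 to 4. The overlap came from siRNLTR12-int replicate 1, which lay just under control replicate 3. The means were 5142 ± 764 (SD, n = 3) after the siRNA and 3691 ± 652 (SD, n = 4) in controls. The limma log2 difference was 0.48 with a standard error of 0.17 (95% interval 0.08 to 0.89, adjusted p = 0.712), and the authors' deposited table gave 0.48 (DESeq2 adjusted p = 0.477). It was 0.40 among the 4 libraries with few astrocyte transcripts and 0.45 among the other 3. In the GRCr8 annotation several loci, noncoding for the most part, lie within Lingo1, on the opposite strand where the strand is known. Whether they share reads with Lingo1 was not tested either.

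Gpr37l1 (ENSRNOG00000006237), Adgrg1 (ENSRNOG00000014963) and S1pr1 (ENSRNOG00000013683) showed no difference between the siRNA groups beyond their spread. Gpr37l1 had 43878, 31032 and 29455 normalised counts in siRNLTR12-int replicates 1 to 3, and 41882, 37573, 28270 and 33978 in control replicates 1 to 4. Adgrg1, an adhesion receptor of progenitors, had 19580, 21968 and 19967 in siRNLTR12-int replicates 1 to 3, and 22615, 30104, 16019 and 16658 in control replicates 1 to 4. S1pr1 had 18112, 6422 and 6076 in siRNLTR12-int replicates 1 to 3, and 17206, 13799.7, 6262 and 6002 in control replicates 1 to 4. S1pr1 was thus high in the libraries high in astrocyte markers, whichever siRNA they had received. The limma log2 differences were -0.03 for Gpr37l1 (95% interval -0.49 to 0.43), -0.01 for Adgrg1 (95% interval -0.55 to 0.52) and -0.13 for S1pr1 (95% interval -1.37 to 1.11), with adjusted p of 0.997, 0.999 and 0.994. These intervals do not show that the levels were alike.

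Across the astrocyte split, Gpr37l1 and S1pr1 were higher in all 3 libraries high in astrocyte markers than in the other 4, which is 2 of 9, against 18.6% of all genes. None of the 9 was lower in all 3, against 17.1% of all genes. The log2 difference across the split was 1.39 for S1pr1 and 0.42 for Gpr37l1. For Gpr37 it was 1.98, with overlap, since siRNLTR12-int replicate 1 had 794 normalised counts and control replicate 4 had 1015. Gpr17 ran the other way at -1.29, with control replicate 2 (25917) above siRNLTR12-int replicates 2 and 3. These are descriptions of libraries sorted by marker level, not of groups of the study.

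Within each side of the split the signs of 7 of the 9 differences were the same. The share of all genes with the same sign on both sides was not computed. Among the 4 libraries with few astrocyte transcripts, Gpr37 differed by -2.03, S1pr5 by -1.22, Lpar1 by -1.18 and Gpr17 by -0.86. The other side held 1 siRNLTR12-int and 2 control libraries, and there the same genes differed by -1.87, -2.61, -1.34 and -0.92. Control replicate 2 was the highest library of that side for each of them. For Gpr17, siRNLTR12-int replicate 1 (6558) lay above control replicate 1 (5915) and below control replicate 2 (25917). Adgrg1 had 0.36 in the low libraries and -0.41 in the others, and Gpr37l1 had -0.04 and 0.15. A limma fit of the 4 low libraries, 2 for each siRNA, called 7 of the 9 genes, against 7.88% of all genes there, and DESeq2 called 6 (all of these but Gpr17), against 10.3%. Those were Gpr37 (adjusted p = 0.00466), Lpar1 (0.00781), S1pr5 (0.0191), Lingo1 (0.0279), Gpr3 (0.0338), Adgrg1 (0.0437) and Gpr17 (0.0481). The siRNLTR12-int libraries of that fit, replicates 2 and 3, were the closest pair of the series, so the spread in it is small. Their median chi-square was 1.29 per gene, with 2.74 for the next pair. The 4 libraries of the fit were themselves picked by marker level in these data.

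Ratios of genes within a library do not depend on how that library was scaled. Gpr37 over Gpr37l1, a receptor of maturing oligodendrocytes over its relative shared with astrocytes, had log2 values of -5.79, -6.92 and -7.07 in siRNLTR12-int replicates 1 to 3, and -4.81, -2.73, -4.94 and -5.06 in control replicates 1 to 4. All siRNLTR12-int libraries lay below all controls, by -2.21 between the means (two-sided exact permutation p = 0.0286, adjusted 0.0571 over 4 ratios, where 35 splits allow nothing smaller than 0.0286). Adgrg1 over Gpr37, a progenitor receptor over a later one, was 4.62, 6.42 and 6.51 in siRNLTR12-int replicates 1 to 3, and 3.92, 2.41, 4.12 and 4.04 in control replicates 1 to 4. That ratio was higher in all siRNLTR12-int libraries, by 2.23 (exact permutation p = 0.0286, adjusted 0.0571). S1pr5 over S1pr1 differed by -1.73 and overlapped in control replicate 1 (exact permutation p = 0.0857, adjusted 0.114), and Gpr17 over Gpr37 differed by 1.599 (exact permutation p = 0.286). No ratio passed 0.05 after adjustment. Gpr37 is part of every ratio but S1pr5 over S1pr1. The limma differences of Gpr37l1 (-0.03) and Adgrg1 (-0.01) were small. Gpr37 over Gpr37l1 and Adgrg1 over Gpr37 thus largely restate the difference of Gpr37 and are not separate results. With 1 library left out at a time, Gpr37 over Gpr37l1 ranged over -2.61 to -1.66 and Adgrg1 over Gpr37 over 1.83 to 2.85. S1pr5 over S1pr1 ranged over -2.15 to -1.10, the last without siRNLTR12-int replicate 1. Gpr17 over Gpr37 was 2.67 when siRNLTR12-int replicate 1 was left out, 1.003 when siRNLTR12-int replicate 3 was and 1.06 when control replicate 1 was.

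**Figure D4:**
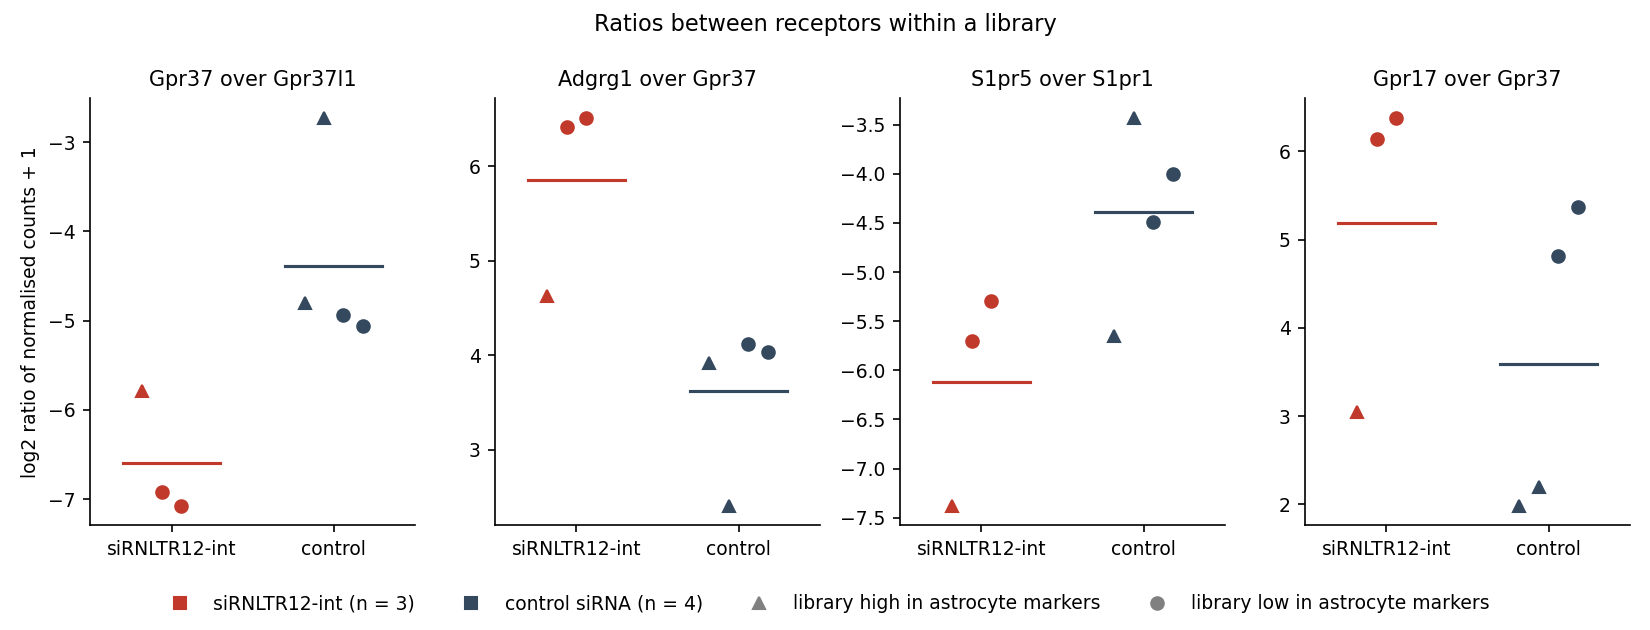
Log2 ratios of normalised counts + 1 within each library for 4 pairs of receptors, in 3 siRNLTR12-int and 4 control libraries, with group means as lines and triangles for libraries high in astrocyte markers. Gpr37 over Gpr37l1 and Adgrg1 over Gpr37 do not overlap between the groups, while S1pr5 over S1pr1 and Gpr17 over Gpr37 do.

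Set against Sox10, Olig1 and Olig2, transcription factors of all stages of the lineage, Gpr3 and S1pr5 were the genes whose groups stayed apart. The share of all genes that stay apart on this measure was not computed. Gpr3 over the mean of these factors was higher by 1.35 on the log2 scale and S1pr5 lower by -1.93, each with an exact permutation p of 0.0571 and an adjusted p of 0.257 over 9 genes. Gpr37 differed by -2.31 (exact permutation p = 0.171, adjusted 0.36), Lpar1 by -1.44 (exact permutation p = 0.171, adjusted 0.36) and Gpr17 by -0.71 (exact permutation p = 0.2, adjusted 0.36), and all of them overlapped. Leaving out siRNLTR12-int replicate 1, the differences were -3.31 for Gpr37 and -2.07 for Lpar1, and leaving out control replicate 2 they were -1.71 and -1.01. The results for Gpr3 and S1pr5 also depended on the reference. Over Sox10 alone, Gpr3 differed by 1.77 (exact permutation p = 0.0857, adjusted 0.45) and S1pr5 by -1.51 (exact permutation p = 0.171, adjusted 0.45). The mean log2 level of the 3 factors was itself 13.75, 15.02 and 14.98 in siRNLTR12-int replicates 1 to 3, and 13.70, 14.45, 14.89 and 15.02 in control replicates 1 to 4, lowest in the libraries high in astrocyte markers.

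Nearest profiles were sought for each of the 9 genes among 12360 others, as the smallest root-mean-square distance between log2 profiles centred over the 7 libraries. Beside Lims2 (distance 0.04), Gpr17 had Bmp4 (0.15), a secreted factor made by newly formed oligodendrocytes. S1pr5 had Atp10b and Mog (0.21 each), Mog being a protein of the outer myelin surface, and Lpar1 had Cnksr3 (0.08) and Sema4d (0.11). Gpr37 had Mylk (0.20) and the connexin Gjc3 (0.28). S1pr1 had Acsbg1 (0.03), an acyl-CoA synthetase. Lingo1 had Tsc22d1 and Zfpm1 (0.06 each), Adgrg1 had Vmp1 (0.05) and Hspa2 (0.07), and Gpr37l1 had Atp5sl and Trim16 (0.04 each). Gpr3 had no gene as near, with Cthrc1 at 0.31 and Htr6, another receptor that raises cyclic AMP, at 0.33. Gpr3 had the fewest reads of the 9 genes, and counting noise adds to such a distance. The part of that noise was not tested. Htr6 had 342, 387 and 399 normalised counts in siRNLTR12-int replicates 1 to 3, and 141, 71.1, 156 and 149 in control replicates 1 to 4. In the authors' deposited table Htr6 was called higher, by 1.55 on the log2 scale (DESeq2 adjusted p = 0.000885), and Atp10b and Gjc3 were called lower. These genes were picked for profiles like those of the 9, so their calls are not separate results.

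**Figure D5:**
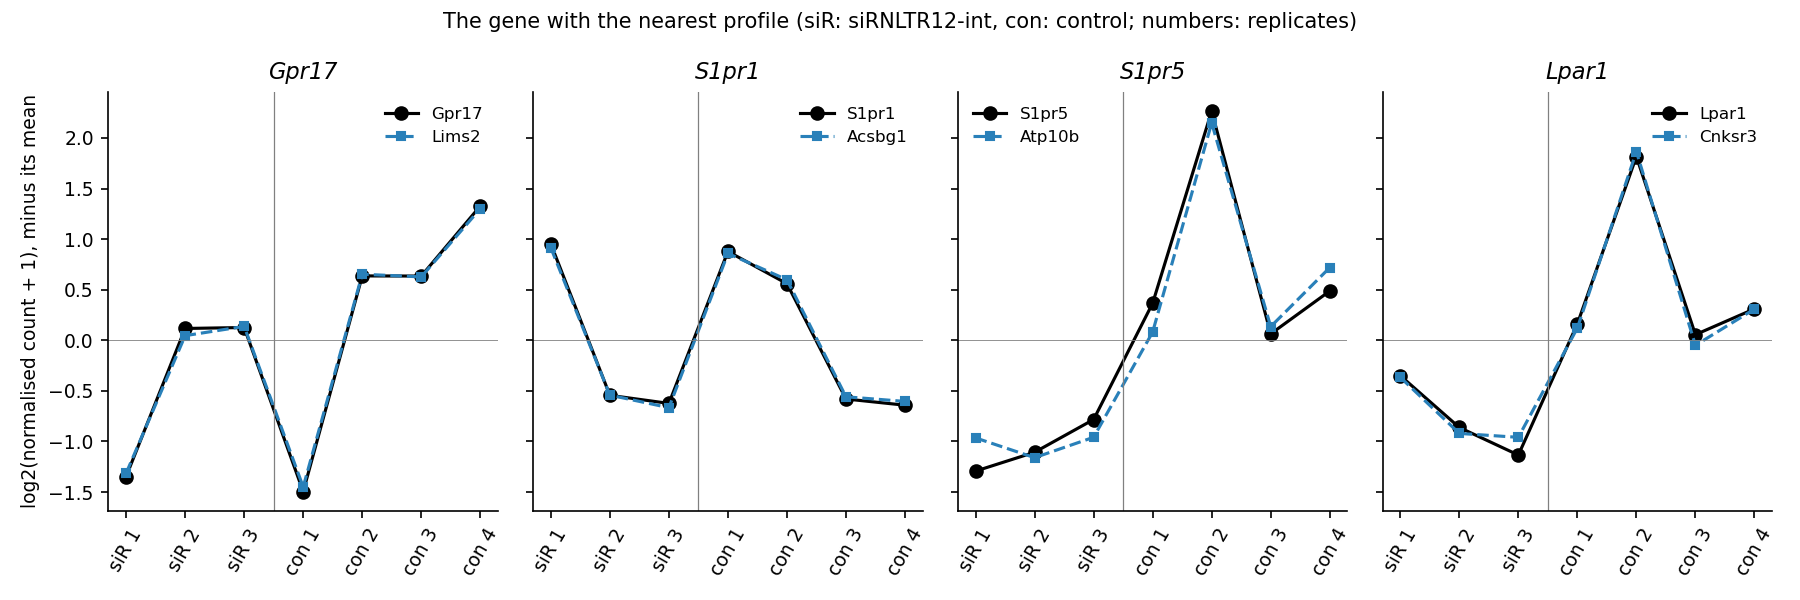
Log2(normalised count + 1) minus its mean over the 7 libraries (y axis) for Gpr17, S1pr1, S1pr5 and Lpar1 and the gene nearest to each, with siRNLTR12-int libraries left of the line and control libraries right of it. Gpr17 and Lims2 overlie each other in every library, S1pr1 is high in the libraries high in astrocyte markers, and S1pr5 and Lpar1 peak in control replicate 2.

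Of the other genes listed for these pathways, which do not include Htr6, 0 passed limma or the authors' deposited table. Family relatives of the receptors (16 tested) had a median log2 difference of -0.30, with 4 positive and 12 negative, beside 0.006 over all genes. Adgrg2 (-2.30) and S1pr2 (0.57) had the smallest p in that list (limma adjusted p = 0.813 and 0.818). Other receptors of the lineage (20 tested) had a median of -0.07, and at an unadjusted p under 0.05 limma had 2 higher and 1 lower, against 3.33% and 2.98% of all genes. Gpr62, an orphan receptor of mature oligodendrocytes, had 32.0, 29.1 and 38.7 normalised counts in siRNLTR12-int replicates 1 to 3, and 61.2, 366, 71.5 and 128 in control replicates 1 to 4, a difference of -1.83 without overlap (limma adjusted p = 0.701). P2ry1, a purine receptor, differed by 0.54 (limma adjusted p = 0.712). Of these 20 receptors, 1 had all siRNLTR12-int libraries below the controls, against 3.59% of all genes, and 1 had them all above, against 4.09%.

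Genes that supply or remove ligands (18 tested) had a median of -0.001, among them Plpp1, a phosphatase of lysophosphatidic acid and related lipids, at 0.59 (limma adjusted p = 0.712) and Plpp2 at -0.50 (0.813). The Lingo1 complex and its effectors (12 tested) had a median of -0.09. Rtn4, which encodes the myelin protein Nogo, differed by -0.35 (limma adjusted p = 0.796) and Ngfr, the p75 co-receptor, by -0.88 (0.832). These are the 2 of the 12 whose siRNLTR12-int libraries were all below the controls, against 3.59% of all genes. Signal transducers (36 tested) had a median of -0.01, with 17 positive and 19 negative. Rapgef3, the exchange factor Epac1 that is activated by cyclic AMP, had 3895, 4058 and 3166 normalised counts in siRNLTR12-int replicates 1 to 3, and 3029, 2429, 2667 and 2669.9 in control replicates 1 to 4. It was higher in all siRNLTR12-int libraries, by 0.45 (limma adjusted p = 0.661), and the RhoA-dependent kinase Rock2 differed by 0.42 (0.784). Of the 36 transducers, 2 had all siRNLTR12-int libraries above the controls, against 4.09% of all genes, and 0 had them all below, against 3.59%.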

How the data were processed

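RNA sequencing of cultured rat cells was analysed in 3 siRNLTR12-int and 4 control libraries. Wells of a 12-well plate held about 40000 cells each, per the labels' protocols. The RNA (integrity numbers 9 to 10) went through removal of ribosomal RNA into a directional paired-end kit. Salmon, DESeq2 and the build Rnor_6.0 are listed in the submitters' processing notes without versions. The authors deposited normalised counts, a signal per gene in which each library has its own scale, and a second table giving the mean signal, the log2 fold change, its standard error, a test score and a p-value, raw and adjusted, per the file headers. Dividing each library by its smallest step turned 100% of its values into whole numbers (within 0.01), which gave back the reads. These may be rounded estimates.

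Log2(normalised count + 1) was fitted with limma 3.58.1 (trend, two-sided, Benjamini-Hochberg) over 18225 genes with a mean of at least 10. Alternatives on those reads used edgeR 4.0.16 and DESeq2 1.42.0. The scripts were tested on simulated data. Exact permutation tests were two-sided over 35 splits. The named genes are the 9 members, the 2 nearest profiles to each (mean of at least 100, no provisional symbol; 1 is not reported here), the 2 smallest p of each pathway list, and markers. Cldn5, Flt1, Kdr, Cdh5, Olig1, Olig2, Ptprz1, Cspg5, Tnr and Vcan were named after their values were seen. Members and lists were chosen with earlier results of these data known. Symbols come from the deposited table, and Rnor_6.0 coordinates were not used here.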

Additional observations from a re-analysis of the deposited data

Results flagged for a closer look

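Dixon's test on groups of 4 picked out control replicate 2 in 5 of the 22 sets of control values checked. The sets share genes and libraries, so this count cannot be set against a chance rate. Single genes were checked as normalised counts, where a high library stands out more than on a log2 scale. Control replicate 2 was the highest control for Gpr37 (5673 normalised counts), S1pr5 (1281) and Lpar1 (6777). The same library was apart in the log2 ratio of Gpr37 over Gpr37l1 (-2.73) and in that of Adgrg1 over Gpr37 (2.41), which share Gpr37. Control replicate 2 was the highest control for 4 of the 9 genes, against 26.8% of all genes. It also had the highest myelin marker sum of the 7 libraries, and the part of that in these values was not tested.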

How the results depend on the processing

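Every alternative run kept the sign of Gpr17, Gpr37, Gpr3, S1pr5, Lpar1 and Lingo1. Gpr37l1, Adgrg1 and S1pr1, near 0 in the limma fit of all 7 libraries, changed sign in some, and the cause was not tested. The count of genes limma called, 0, became 839 under array weights and 1415 for the 4 astrocyte-low libraries, and DESeq2 called 141; 4, 7 and 2 of the 9 genes were among them, and without 1 library limma called 0 to 2 genes. edgeR called 0 (at an unadjusted p under 0.05 it had 581 higher and 587 lower). With array weights the values that passed were -2.40 for Gpr37, 1.41 for Gpr3, -1.45 for S1pr5 and -1.42 for Lpar1, and Adgrg1 was 0.18. DESeq2 gave 1.49 for Gpr3 and -2.15 for S1pr5. The 4 low libraries gave -0.86 for Gpr17, -2.03 for Gpr37, 0.36 for Adgrg1, 1.46 for Gpr3, -1.22 for S1pr5, 0.027 for S1pr1, -1.18 for Lpar1 and 0.40 for Lingo1 in limma, and -2.05 for Gpr37, 0.34 for Adgrg1, 0.011 for S1pr1, -1.20 for Lpar1 and 0.38 for Lingo1 in DESeq2. With the astrocyte split as a block, limma gave 0.037 for Gpr37l1, 0.049 for Adgrg1 and 0.11 for S1pr1, and DESeq2 gave 0.033, 0.055 and 0.11 for them, -2.09 for Gpr37, -1.33 for Lpar1 and 0.42 for Lingo1. With astrocyte level as a covariate limma gave 0.0019 for Gpr37l1 and 0.014 for Adgrg1. Over the lineage factors, Gpr37l1, Adgrg1 and S1pr1 were 0.14, 0.15 and 0.21 within the sides of the split, and 0.31, 0.33 and 0.22 over Sox10 alone.

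Leaving out each library in turn, limma ranged over -0.21 to 0.074 for Gpr37l1, -0.13 to 0.17 for Adgrg1 and -0.64 to 0.15 for S1pr1. DESeq2 ranged over -3.27 to -1.43 for Gpr37, -0.23 to 0.082 for Gpr37l1, -0.18 to 0.15 for Adgrg1, 1.21 to 1.68 for Gpr3, -2.38 to -1.36 for S1pr5, -0.80 to 0.23 for S1pr1 and -1.79 to -0.92 for Lpar1. Over the lineage factors the ranges were -0.70 to 0.25 for Gpr37l1, -0.46 to 0.23 for Adgrg1 and -1.12 to 0.35 for S1pr1. The DESeq2 alternatives other than the fit of all 7 libraries were chosen after seeing the data. The astrocyte split was also set from these data, at the widest gap in mean astrocyte marker level. The limma fits that use it are therefore not independent of the data either.

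Same-numbered libraries deviated from their group means with r of 0.75, -0.19 and 0.63. For siRNLTR12-int replicates 1 and 3 the control of the same number had the highest r. For siRNLTR12-int replicate 2 it was control replicate 3 (0.57). The libraries numbered 1 were both high in astrocyte markers and those numbered 3 both low, so these r cannot tell pairing from that split. Whether the numbers pair the samples is therefore not settled. With the replicate block limma called 0 genes and gave -2.48 for Gpr37, 1.56 for Gpr3, -1.96 for S1pr5 and -1.46 for Lpar1. DESeq2 with the replicate block called 3 of the 9 (Gpr37 at -2.44, Lpar1 at -1.45 and S1pr5), against 0.989% of all genes, and Gpr3 was 1.58 without passing. Gpr3 rests on 27 to 116 reads a library, the fewest of the 9 genes, which limits its precision.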
